A study of Mus musculus with 48 samples.

Results

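The 10 genes below encode neuropeptide precursors and were followed through 4 parts of the mouse dopamine system. They were Vip, Sst, Npy, Cck, Crh, Tac1, Nts, Cartpt, Grp and Rln3, picked by name from peptides known from interneurons and projection neurons. Earlier results of these data were known when they were picked. Each had 1 row with a single gene symbol on the array, and all 10 were among the 17274 genes tested out of 22180 genes with such a row. Total RNA came from male C57BL/6 mice kept under 12 h of light and 12 h of darkness, with no other treatment or genotype. From the midbrain came substantia nigra plus ventral tegmental area (abbreviated SN/VTA), from the cortex its prefrontal part (PFC), and the other tissues were striatum (STR) and habenula (HAB), all cut from both sides of 1-mm coronal slices. Zeitgeber time (ZT) counts hours from lights on, and mice were taken at ZT 3, 7 and 11 while lights were on and at ZT 15, 19 and 23 while they were off, in 2 successive 24-h cycles. Each tissue therefore had 12 arrays, and the study 48. Every array carried the pooled RNA of 3 mice, so a p-value reflects the spread from pool to pool. Precision is limited by the number of arrays. The labels do not say whether the same mice gave several tissues at one time, and the tissue tests treat the arrays as independent samples.

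Neuropeptides are cut from longer precursors, packed into dense-core vesicles and released beside a fast transmitter, mostly onto G protein-coupled receptors. In the cortex Vip, Sst and Npy are made by separate or overlapping classes of GABA interneurons, whereas in the striatum Sst and Npy share one class of interneuron and Tac1 belongs to the projection neurons of the direct pathway. Cck and Nts are known from dopamine neurons of the rodent midbrain. Rln3 is known from the nucleus incertus of the pons and from small groups of midbrain neurons.

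Levels are deposited log2 values per probe set, so that a difference of 1 is a 2-fold change, and they are compared between tissues for 1 gene at a time, never between genes. All values of the table lay between 1.09 and 13.65, with array medians of 5.84 to 6.07. Replicate arrays had correlations (r) of 0.982 to 0.995, and 48 of 48 arrays were closest to another array of their own tissue. Defining genes fitted the labels: Slc6a3 and Th in SN/VTA, Fezf2 in PFC, Drd1 in STR and Chrna3 in HAB were each higher in all 12 arrays of that tissue than in any other array. No detection calls were used, so the level set by background is unknown, and a fold against a low level may understate the change. These are bulk samples, in which fewer cells of a type and less RNA per cell cannot be told apart.

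Several of these genes are textbook targets of transcription factors that read short motifs close to the start. The 150 bases before the start were read from RefSeq promoter windows (GRCm38.p6) for 8 of the 10 genes. Crh and Grp had no window in that table. The windows of 5 genes are shown 5′ to 3′ on the gene's strand because they hold a cAMP response element (CRE, letters TGACGTCA, or its first 6 letters TGACGT) or an E-box (CACGTG), which are in capitals. Windows were searched on both strands, and each TGACGTCA also counts as TGACGT.
Sst: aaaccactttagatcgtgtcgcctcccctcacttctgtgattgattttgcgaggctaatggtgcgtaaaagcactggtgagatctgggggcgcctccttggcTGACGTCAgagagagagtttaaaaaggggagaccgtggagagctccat
Cartpt: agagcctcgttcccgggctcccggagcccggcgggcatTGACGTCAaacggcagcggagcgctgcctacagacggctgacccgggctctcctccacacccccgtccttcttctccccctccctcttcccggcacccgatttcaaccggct
Vip: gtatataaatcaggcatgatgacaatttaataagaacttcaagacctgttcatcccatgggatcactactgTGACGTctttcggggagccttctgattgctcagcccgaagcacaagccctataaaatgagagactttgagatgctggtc
Cck: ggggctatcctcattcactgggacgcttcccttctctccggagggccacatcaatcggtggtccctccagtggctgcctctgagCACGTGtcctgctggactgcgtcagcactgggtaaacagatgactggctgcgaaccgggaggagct
Tac1: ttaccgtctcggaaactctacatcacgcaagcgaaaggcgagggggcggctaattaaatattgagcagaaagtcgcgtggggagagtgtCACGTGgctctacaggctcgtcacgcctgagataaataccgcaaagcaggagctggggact
The Sst window is chr16:23890845-23890994 (minus strand), with its CRE beginning 48 bases before the start. That of Cartpt is chr13:99900684-99900833 (minus strand), where the CRE lay 112 bases before. In Vip, at chr10:5639068-5639217 (plus strand), the shorter TGACGT began 79 bases before the start. The E-boxes of Cck (chr9:121495695-121495844, minus strand) and Tac1 (chr6:7554911-7555060, plus strand) began 66 and 61 bases before it. The full CRE was in 2 of the 8 windows and in 1.36% of all 32851 windows of this length, TGACGT in 3 of 8 and 5.15% of all, and CACGTG in 2 of 8 and 4.3% of all. The table's starts of Vip, Sst and Cartpt lie inside the outermost RefSeq boundary of the gene. A match describes the letters and is not evidence of binding.

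The levels of these genes were compared first between tissues. A tissue difference was called at an adjusted p under 0.05 (limma, Benjamini-Hochberg over the 17274 genes) together with a difference of at least 1 (log2), which is the minimum change. Of the 60 values for 10 genes in 6 pairs of tissues, 33 were called, 19 passed the adjusted p alone and 8 did not pass it. In SN/VTA minus PFC 7 of the 10 were called, against 9.33% of all genes tested. Of these 7, 3 were higher in SN/VTA (6.18% of all genes) and 4 lower (3.15%). In SN/VTA minus STR 7 were called, against 5.18% of all genes, with 4 higher (3.24%) and 3 lower (1.95%). In SN/VTA minus HAB 5 were called, against 3.58% of all genes, with 4 higher (1.58%) and 1 lower (2%). SN/VTA thus had calls in both directions against each other tissue. PFC minus STR gave 6 calls (6.23% of all genes), 3 higher (3.59%) and 3 lower (2.64%). PFC minus HAB gave 3 calls (5.68%), 3 higher (2.48%) and 0 lower (3.2%). STR minus HAB gave 5 calls (3.42%), 4 higher (1.29%) and 1 lower (2.14%). These comparisons share arrays, so the counts are not independent. The 10 genes were chosen with earlier results of these data known, so counts set beside shares of all genes are descriptions only. The 12 arrays of the first tissue did not overlap the 12 of the second for 43 of the 60 values. By pair this held for 9 of the 10 genes in SN/VTA minus PFC (40.5% of all genes), 8 in SN/VTA minus STR (33.8%) and 7 in SN/VTA minus HAB (27.3%). It held for 7 in PFC minus STR (29.6%), 5 in PFC minus HAB (30.3%) and 7 in STR minus HAB (17.5%). All 10 genes were called in at least 1 pair, against 16.7% of all genes. At least 4 pairs were called for 4 of them, against 1.35% of all genes, and 0 of them were called in all 6 (0.0116%). The median gene of the 10 was called in 3 pairs, against 0 over all genes. Cartpt was called in 5 pairs, Cck, Nts and Sst in 4, and Crh in 1.

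**Figure D1:**
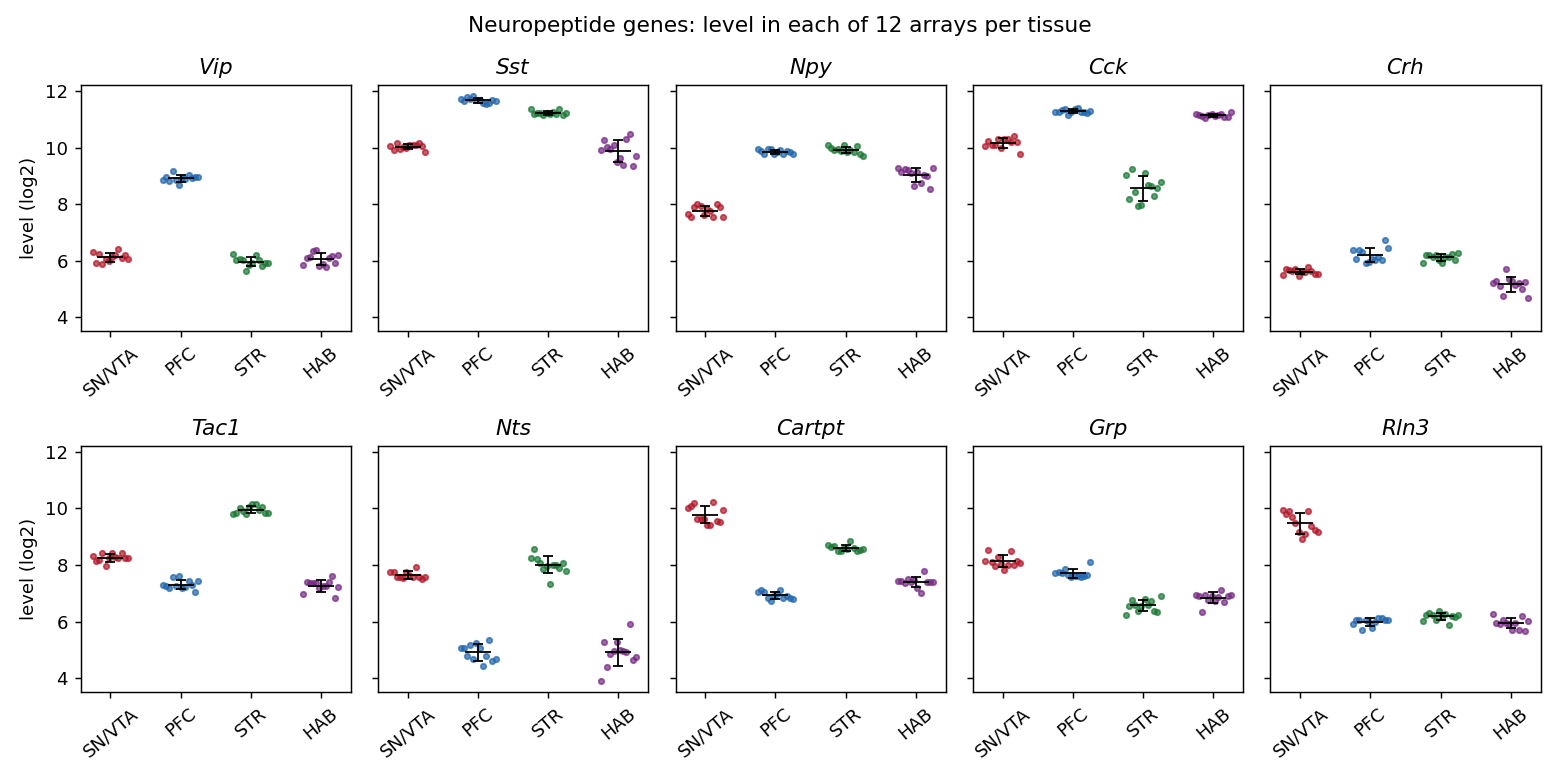
Log2 level of each gene (vertical axis) in the 12 arrays of each of 4 tissues (points), with mean and SD over the 12 arrays (bars). Vip stands apart in PFC, Rln3 in SN/VTA and Tac1 in STR, and Cck is lowest in STR.

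Vip encodes vasoactive intestinal peptide, the mark of cortical interneurons that mostly inhibit other interneurons. Its level was 5.88, 6.12 and 6.41 in SN/VTA (lowest, median and highest of 12 arrays), 8.68, 8.92 and 9.19 in PFC, 5.65, 5.97 and 6.24 in STR, and 5.79, 6.1 and 6.37 in HAB. Every PFC array was above every array of the other tissues, and the other tissues overlapped each other. PFC exceeded STR by 2.95 ± 0.06 (SE, n = 12 arrays each), a 7.72-fold difference with an adjusted p of 8.38e-26 in limma. It exceeded HAB by 2.86 ± 0.06, or 7.27-fold (adjusted p = 2.29e-25, limma), and SN/VTA minus PFC was -2.80 ± 0.06 (adjusted p = 2.12e-25, limma). The differences among SN/VTA, STR and HAB were 0.15 or less in size, and of these SN/VTA minus STR passed the adjusted p at 0.0335 in limma. That value was 0.34 after median centring, and its adjusted p reached 0.0942 with single arrays left out. Htr3a, the serotonin receptor gene of the wider interneuron class that holds the Vip cells, averaged 6.62 ± 0.20 in SN/VTA, 7.55 ± 0.14 in PFC, 6.49 ± 0.21 in STR and 6.96 ± 0.15 in HAB (SD, n = 12 each), and it too was higher in all 12 PFC arrays than elsewhere. Other interneuron markers did not all follow. The GABA neuron genes Gad1, Gad2 and Slc32a1 were each lower in PFC than in SN/VTA and STR. Gad1 averaged 7.92 in SN/VTA, 6.93 in PFC, 8.45 in STR and 7.11 in HAB. In the same order Gad2 averaged 10.14, 9.69, 10.58 and 8.51, and Slc32a1 8.62, 7.74, 9.07 and 6.68. Adarb2 was lowest in PFC at 7.35 ± 0.09, with 8.24 ± 0.13 in SN/VTA, 7.47 ± 0.15 in STR and 8.12 ± 0.31 in HAB. Calb2, Sncg and Prox1, given further below, were also lower in PFC than in SN/VTA, whereas Lamp5 was highest in PFC.

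Sst encodes somatostatin, the peptide of interneurons that contact dendrites in the cortex and of a sparse class of striatal interneurons. The Sst level (lowest, median, highest) was 9.85, 10.06 and 10.17 in SN/VTA, 11.55, 11.69 and 11.82 in PFC, 11.14, 11.22 and 11.38 in STR, and 9.36, 9.93 and 10.48 in HAB. PFC and STR arrays were above all SN/VTA and HAB arrays, PFC arrays were above all STR arrays, and SN/VTA lay within the wide range of HAB. PFC minus HAB was 1.79 ± 0.06 (3.45-fold, adjusted p = 5.75e-22 in limma, n = 12 each) and STR minus HAB 1.35 ± 0.06 (2.55-fold). SN/VTA was below PFC by 3.1-fold and below STR by 2.29-fold, both called, whereas PFC minus STR was 0.44 ± 0.06, under the minimum change.

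Npy encodes neuropeptide Y, which in cortex and striatum is made by interneurons, many of them also making Sst. It reached 7.55, 7.78 and 8.01 in SN/VTA (lowest, median, highest), 9.77, 9.86 and 9.95 in PFC, 9.72, 9.92 and 10.09 in STR, and 8.53, 9.11 and 9.29 in HAB. SN/VTA arrays were below all others, HAB arrays were between, and PFC and STR overlapped. SN/VTA minus STR was -2.15 ± 0.07 (4.43-fold, adjusted p = 2.56e-21 in limma, n = 12 each), SN/VTA minus PFC -2.09 ± 0.07 and SN/VTA minus HAB -1.26 ± 0.07, all called. PFC minus STR was -0.06 ± 0.07, with an adjusted p of 0.466 in limma. For Sst, SN/VTA minus HAB was 0.16 ± 0.06 and not called. It ran from 0.06 to 0.30 over other settings, with an adjusted p of up to 0.363 (limma), and with single arrays left out the adjusted p reached 0.0579. Lhx6, a transcription factor of the interneuron lineage that gives Sst cells, averaged 6.97 ± 0.15 in SN/VTA, 7.62 ± 0.14 in PFC, 7.74 ± 0.09 in STR and 7.03 ± 0.17 in HAB, with 0 pairs called. Pvalb and Nos1, also listed as interneuron markers, were instead higher in all 12 SN/VTA arrays than elsewhere. Pvalb averaged 9.21 ± 0.14 in SN/VTA, 7.11 ± 0.15 in PFC, 7.24 ± 0.18 in STR and 7.29 ± 0.14 in HAB. Nos1 averaged 8.46 ± 0.07, 7.67 ± 0.13, 7.97 ± 0.14 and 8.04 ± 0.20 in the same order, with 0 pairs called.

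Crh encodes corticotropin-releasing hormone, which drives the pituitary stress axis and is also made by cortical interneurons. It had the smallest tissue differences of the 10, with means of 5.62 ± 0.10 in SN/VTA, 6.21 ± 0.25 in PFC, 6.12 ± 0.11 in STR and 5.17 ± 0.27 in HAB (SD, n = 12 each). PFC and STR overlapped, while HAB arrays ran below all PFC and STR arrays. The single call was PFC minus HAB at 1.04 ± 0.06 (2.06-fold, adjusted p = 1.38e-15 in limma), just past the minimum change. Without the HAB array of ZT 23 in cycle 2 the value was 0.99 and no longer called. STR minus HAB, at 0.96 ± 0.06, missed the minimum change and reached 1 without the HAB array of ZT 23 in cycle 1.

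Cck encodes cholecystokinin, made by pyramidal neurons and interneurons of the cortex and by midbrain dopamine neurons. Levels of Cck were 9.79, 10.19 and 10.42 in SN/VTA (lowest, median, highest), 11.17, 11.26 and 11.4 in PFC, 7.94, 8.6 and 9.25 in STR, and 11.06, 11.14 and 11.27 in HAB. STR arrays were below all others and SN/VTA arrays came next, whereas PFC and HAB overlapped. PFC minus STR was 2.71 ± 0.08 (6.56-fold, adjusted p = 2.06e-22 in limma, n = 12 each), STR minus HAB -2.57 ± 0.08 and SN/VTA minus STR 1.59 ± 0.08. PFC minus HAB was 0.14 ± 0.08, with an adjusted p of 0.128 in limma. SN/VTA minus HAB was -0.98 ± 0.08 and missed the minimum change; it was called after quantile normalization, at -1.09, and without any 1 of 3 SN/VTA arrays (ZT 11 or ZT 23 of cycle 1, or ZT 19 of cycle 2), at -1.02 to -1.

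Tac1 encodes the precursor of substance P and neurokinin A. Over the 12 arrays Tac1 measured 7.95, 8.25 and 8.44 in SN/VTA (lowest, median, highest), 7.04, 7.28 and 7.62 in PFC, 9.79, 9.94 and 10.15 in STR, and 6.84, 7.31 and 7.62 in HAB. STR arrays were above all others, SN/VTA arrays came next, and PFC and HAB overlapped. STR minus HAB was 2.68 ± 0.06 (6.41-fold, adjusted p = 1.14e-24 in limma, n = 12 each), PFC minus STR -2.64 ± 0.06 and SN/VTA minus STR -1.69 ± 0.06. SN/VTA exceeded PFC by 0.94 ± 0.06 and HAB by 0.98 ± 0.06, and neither reached the minimum change. Both were called after each array was centred on its median, at 1.06 and 1.12, and the difference from HAB was also called, at 1 to 1.02, without any 1 of 7 single arrays.

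Nts encodes neurotensin, a peptide that acts on dopamine neurons through the receptor Ntsr1. The Nts level was 7.49, 7.59 and 7.93 in SN/VTA (lowest, median, highest), 4.43, 4.93 and 5.36 in PFC, 7.34, 8 and 8.58 in STR, and 3.91, 4.95 and 5.9 in HAB. It was low in PFC and HAB, whose means were both 4.91, below the level of 5.05 used to filter genes on their mean over all arrays. SN/VTA and STR were each above every PFC and HAB array and overlapped each other. STR minus HAB was 3.10 ± 0.12 (8.56-fold, adjusted p = 3.53e-19 in limma, n = 12 each) and SN/VTA minus PFC 2.73 ± 0.12 (6.64-fold). SN/VTA minus STR was -0.36 ± 0.12, past the adjusted p (0.0101, limma) and under the minimum change. It was -0.17 with an adjusted p of 0.195 after median centring, so it did not pass there.

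Cartpt encodes the CART peptide, known from the nucleus accumbens, the hypothalamus and the Edinger-Westphal nucleus of the midbrain. Levels of Cartpt were 9.4, 9.63 and 10.22 in SN/VTA (lowest, median, highest), 6.73, 6.91 and 7.11 in PFC, 8.48, 8.58 and 8.83 in STR, and 7.02, 7.4 and 7.78 in HAB. SN/VTA arrays were above all others and STR arrays above all PFC and HAB arrays, while PFC and HAB overlapped. SN/VTA minus PFC was 2.84 ± 0.07 (7.14-fold, adjusted p = 2.8e-25 in limma, n = 12 each), SN/VTA minus HAB 2.37 ± 0.07 and SN/VTA minus STR 1.17 ± 0.07. STR exceeded HAB by 1.20 ± 0.07, and PFC minus STR was -1.67 ± 0.07. Ucn, the urocortin gene that marks the Edinger-Westphal nucleus, averaged 7.07 ± 0.26 in SN/VTA, 6.76 ± 0.21 in PFC, 6.51 ± 0.12 in STR and 6.29 ± 0.19 in HAB, and 0 of its tissue differences reached the minimum change. Whether cells of that nucleus carried part of the Cartpt level was not tested.

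Grp encodes gastrin-releasing peptide, found in neurons of the ventral tegmental area and in cortical projection neurons. Grp lay at 7.84, 8.08 and 8.53 in SN/VTA (lowest, median, highest), 7.56, 7.66 and 8.09 in PFC, 6.25, 6.56 and 6.9 in STR, and 6.33, 6.91 and 7.13 in HAB. SN/VTA and PFC overlapped and were above STR and HAB, which also overlapped. SN/VTA minus STR was 1.56 ± 0.08 (2.95-fold, adjusted p = 4.94e-17 in limma, n = 12 each), SN/VTA minus HAB 1.29 ± 0.08 and PFC minus STR 1.14 ± 0.08, all called. PFC minus HAB, at 0.86 ± 0.08, was not.

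Rln3 encodes relaxin-3, whose main receptor in the brain is Rxfp3. It had the largest tissue differences of the 10, with levels of 8.92, 9.42 and 9.95 in SN/VTA (lowest, median, highest), 5.7, 6.04 and 6.14 in PFC, 5.89, 6.21 and 6.38 in STR, and 5.68, 5.95 and 6.28 in HAB. All SN/VTA arrays were far above the rest, and PFC, STR and HAB overlapped. SN/VTA minus HAB was 3.53 ± 0.07 (11.5-fold, adjusted p = 1.36e-26 in limma, n = 12 each), SN/VTA minus PFC 3.48 ± 0.07 (11.2-fold) and SN/VTA minus STR 3.29 ± 0.07 (9.8-fold). The means of Rln3 outside SN/VTA, 5.99 in PFC, 6.18 in STR and 5.94 in HAB, lay near the array medians of 5.84 to 6.07. STR exceeded HAB by 0.24 ± 0.07, past the adjusted p but under the minimum change. PFC minus STR was -0.19 ± 0.07 (adjusted p = 0.0145, limma), and -0.12 after median centring (adjusted p = 0.113) and after quantile normalization, where it did not pass either. Of the fixed markers of serotonin and pontine nuclei 1 of 3, Tph2, was tested: it averaged 5.42 ± 0.58 in SN/VTA, 5.03 ± 0.22 in PFC, 5.21 ± 0.23 in STR and 5.13 ± 0.29 in HAB (SD, n = 12 each), with 0 pairs called. Its highest SN/VTA array reached 6.79. The part of pontine tissue in the Rln3 level was not tested.

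**Figure D2:**
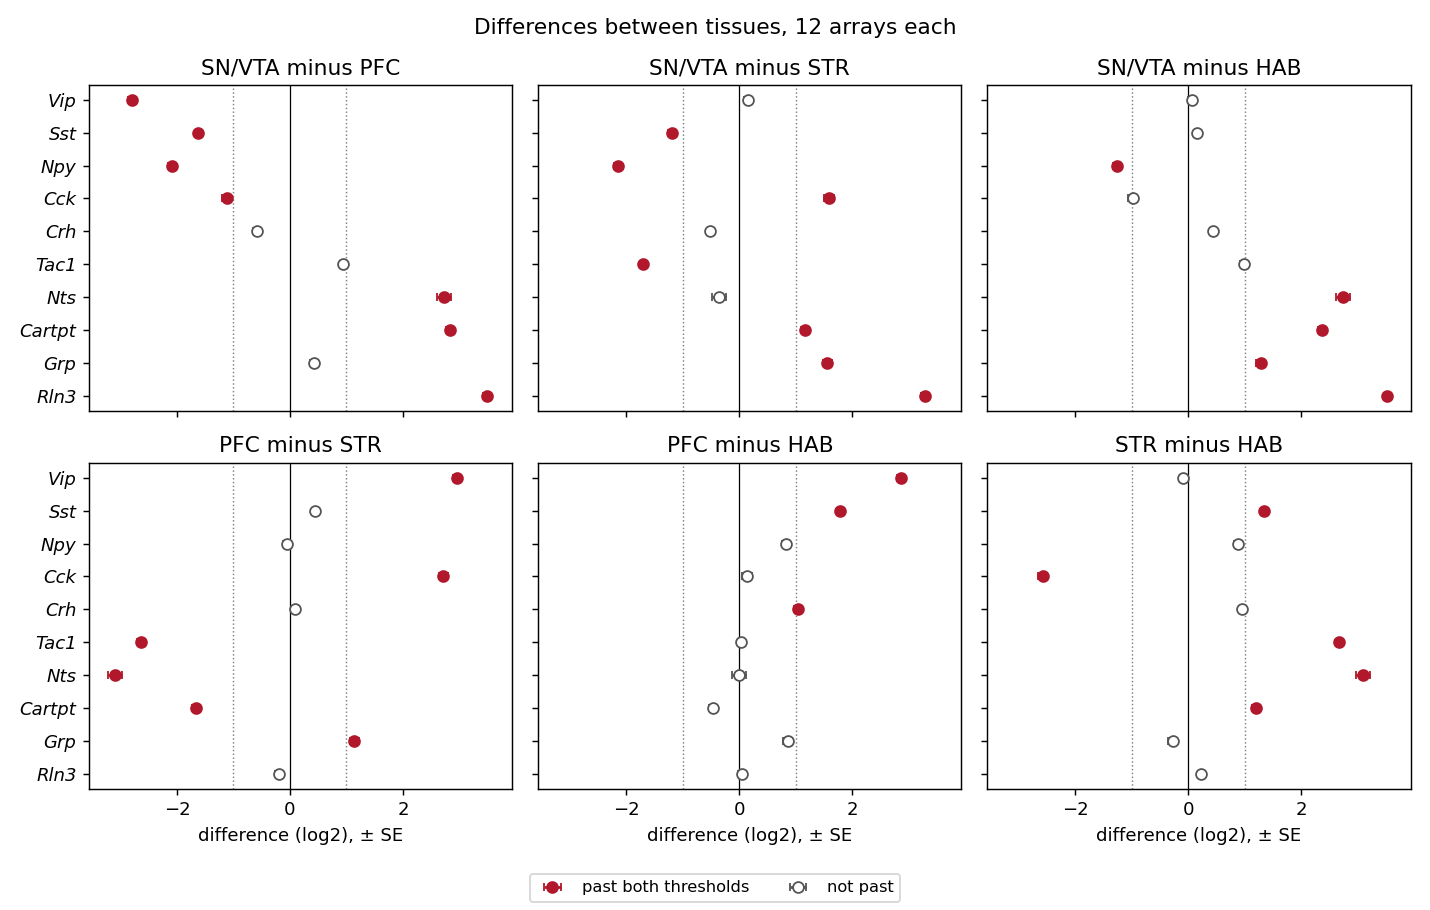
Difference in log2 level between 2 tissues (horizontal axis, first minus second named, ± SE from limma) for each of the 10 genes, 12 arrays per tissue. Filled points passed an adjusted p under 0.05 and a change of at least 1 (dotted lines), which held for 33 of 60 values.

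Over the 48 arrays, each gene was also set beside the genes whose level followed it most closely, as a description in which tissue is what the points share. Rln3 ran closest to Slc6a3 (r = 0.989), Th (0.985) and Chrna6 (0.982), the dopamine transporter, tyrosine hydroxylase and a nicotinic receptor subunit, all known from midbrain dopamine neurons. Over the 12 SN/VTA arrays alone, r of Rln3 with the mean of Th, Slc6a3 and Slc18a2 was 0.48 (permutation p = 0.11, adjusted 0.59). That r was 0.30 without the 2 arrays farthest from the median of Rln3, 0.17 within cycle 2 and 0.69 within cycle 1. Tac1 ran with Slc35d3 (0.981), Rxrg (0.977) and Isl1 (0.973), the last of these a factor of the direct-pathway projection neurons that make substance P. For Vip the closest were Bmp3 (0.984), Rpl13 (0.981) and Slc39a10 (0.981), and for Sst Lamp5 (0.963), Efnb2 (0.958) and Fzd3 (0.95). Npy was nearest to Ano3 (0.981), Cck to Nrn1 (0.982), Nts to Ecel1 (0.979) and Grp to Atcay (0.957). Cartpt had Abat (0.971), the enzyme that breaks down GABA, Kcne1l (0.967) and the tachykinin receptor gene Tacr3 (0.966) as its nearest. Crh had the weakest likeness of the 10, with Slc35f1 at 0.893.

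Receptors of these peptides were examined as a list. Of 25 receptor genes 24 were tested, and 14 were called in at least 1 pair of tissues, against 16.7% of all genes. SN/VTA minus PFC called 9 of them (3 higher and 6 lower, against 9.33% of all genes) and PFC minus STR 9 (5 higher and 4 lower, against 6.23%), with list medians of 0.16 and 0.12 against 0.05 and -0.05 over all genes. SN/VTA minus STR called 5 (5.18% of all genes), SN/VTA minus HAB 7 (3.58%), PFC minus HAB 5 (5.68%) and STR minus HAB 4 (3.42%). Rxfp1, a relaxin receptor that relaxin-3 also activates, averaged 6.20 ± 0.21 in SN/VTA, 8.28 ± 0.14 in PFC, 5.18 ± 0.15 in STR and 5.54 ± 0.34 in HAB (SD, n = 12 each). It was thus highest in PFC, where its difference from STR was 3.10 ± 0.08 (8.57-fold, adjusted p = 3.74e-24 in limma), whereas Rln3 itself was highest in SN/VTA. Rxfp3 differed little, with means of 5.88 ± 0.09 in SN/VTA, 5.68 ± 0.16 in PFC, 5.71 ± 0.16 in STR and 5.62 ± 0.23 in HAB and no call. These means lay near or below the array medians of 5.84 to 6.07, so background may limit what the small differences show. The Rxfp1 means in STR and HAB were also below those medians.

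Cckbr, the main cholecystokinin receptor of the brain, averaged 7.79 ± 0.13 in SN/VTA, 9.58 ± 0.19 in PFC, 7.73 ± 0.13 in STR and 7.24 ± 0.36 in HAB. PFC minus HAB was 2.34 ± 0.10 for Cckbr (5.06-fold, adjusted p = 2.58e-19 in limma), the pair in which Cck itself was not called. The other cholecystokinin receptor, Cckar, averaged 5.96 ± 0.15 in SN/VTA, 4.96 ± 0.31 in PFC, 6.04 ± 0.21 in STR and 4.79 ± 0.25 in HAB. Its PFC and HAB means were below the filter level of 5.05. Ntsr1, the neurotensin receptor of dopamine neurons, averaged 8.55 ± 0.20 in SN/VTA, above its means of 7.60 ± 0.17 in PFC, 7.19 ± 0.23 in STR and 7.06 ± 0.41 in HAB. Its SN/VTA minus STR difference was 1.36 ± 0.08 (adjusted p = 1.29e-15, limma).

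Npy1r and Npy2r, the postsynaptic and mainly presynaptic receptors of neuropeptide Y, peaked in different tissues. Npy1r averaged 7 ± 0.22 in SN/VTA, 8.39 ± 0.12 in PFC, 7.21 ± 0.17 in STR and 7.82 ± 0.24 in HAB. Npy2r averaged 6.87 ± 0.39 in SN/VTA, 6.36 ± 0.17 in PFC, 7.38 ± 0.10 in STR and 8.34 ± 0.31 in HAB, so that PFC minus HAB was -1.98 ± 0.11 (adjusted p = 1.07e-15, limma). Both receptors of vasoactive intestinal peptide were called between SN/VTA and PFC, in opposite directions: Vipr1 by -1.18 ± 0.07 and Vipr2 by 1.11 ± 0.11. For somatostatin, Sstr2 had means of 7.51 ± 0.08 in SN/VTA, 8.53 ± 0.12 in PFC, 7.40 ± 0.13 in STR and 8.60 ± 0.13 in HAB. Tacr1, the substance P receptor, was lowest in PFC at 6.15 ± 0.25, and Tacr3 was highest in SN/VTA at 8.14 ± 0.16, against 5.52 ± 0.22 in PFC (6.14-fold, adjusted p = 4.7e-21 in limma). Grpr had means between 6.21 and 6.46 and no call.

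**Figure D3:**
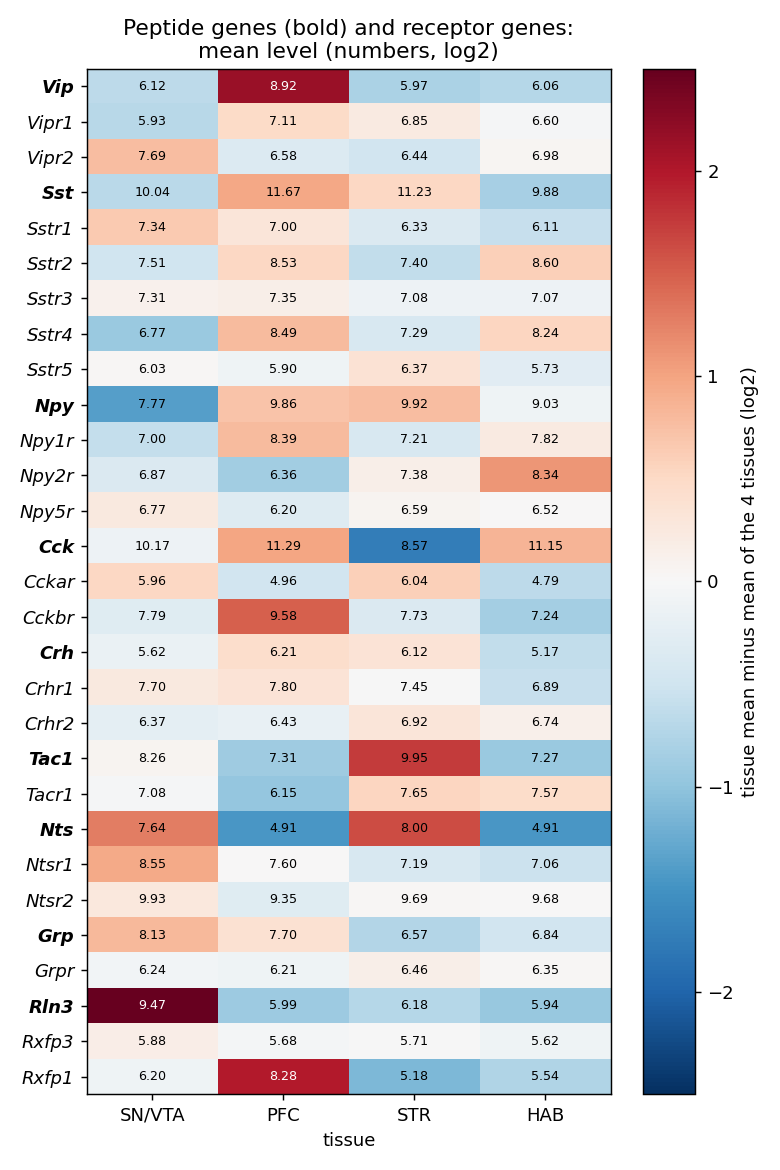
Mean log2 level over 12 arrays (numbers) of the peptide genes with a listed receptor (bold) and of those receptors, by tissue (columns); colour is the tissue mean minus the mean of the 4 tissues for that gene. Vip and Rxfp1 stand out in PFC, Rln3 in SN/VTA, and Cck is lowest in STR where Cckbr is near its SN/VTA level.

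Of 15 listed genes that process, store or bind peptides 14 were tested, and 7 were called in at least 1 pair (16.7% of all genes). Cadps2, which promotes release from dense-core vesicles, averaged 7.62 ± 0.14 in SN/VTA, 8.39 ± 0.09 in PFC, 6.63 ± 0.13 in STR and 8.26 ± 0.20 in HAB (SD, n = 12 each). Pcsk1, a convertase that cuts precursors, averaged 8.65 ± 0.13 in SN/VTA, 8.74 ± 0.16 in PFC, 7.47 ± 0.15 in STR and 7.78 ± 0.08 in HAB. Both were lowest in STR. Crhbp, the binding protein that captures corticotropin-releasing hormone, was higher in PFC than in STR by 1.36 ± 0.08 (adjusted p = 7.86e-16, limma), a pair in which Crh differed by 0.09 ± 0.06 without a call. Scg2, a granin of secretory vesicles, was higher in SN/VTA than in PFC, with 10.08 ± 0.06 in SN/VTA and 8.84 ± 0.13 in PFC.

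Among 19 tested of 21 other neuropeptide genes, 8 were called in at least 1 pair (16.7% of all genes). Penk, the enkephalin precursor of the indirect pathway, averaged 9.48 ± 0.07 in SN/VTA, 9.71 ± 0.24 in PFC, 12.26 ± 0.08 in STR and 8.16 ± 0.36 in HAB, sharing its STR peak with Tac1. Tac2, the neurokinin B precursor, was highest in HAB at 11.61 ± 0.12, with PFC minus HAB at -3.64 ± 0.05 (adjusted p = 8.04e-30, limma), where Tac1 differed by 0.04 ± 0.06. Adcyap1 (the peptide PACAP) was highest in SN/VTA, 3.25 ± 0.06 above STR, and the synaptic organizer Cbln1 was 2.81 ± 0.07 above PFC there. Among interneuron markers 10 of 15 tested of 17 were called in at least 1 pair (16.7% of all genes). Lamp5 averaged 7.45 ± 0.09 in SN/VTA, 10.31 ± 0.11 in PFC, 9.14 ± 0.07 in STR and 7.53 ± 0.42 in HAB, the same order of PFC and STR above the rest as Sst. Calb2, which in the cortex marks many Vip cells, was lowest in PFC, where Vip was highest, with 10.69 ± 0.07 in SN/VTA, 6.82 ± 0.20 in PFC, 8.78 ± 0.25 in STR and 10.53 ± 0.27 in HAB. Sncg and Prox1 were likewise lower in PFC than in SN/VTA, by 5.58-fold and 3.27-fold. Calb2, Sncg and Prox1 are also made by neurons of the midbrain or of regions near the habenula, so in those tissues they do not mark interneurons alone.

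Time of day was examined next. A daily rhythm was tested per tissue as a 24-h cosine and sine (limma F test over 12 arrays), and 0 of the 10 genes were called in any tissue at an adjusted p under 0.05. Of all genes 0.162% were called in SN/VTA, 0.179% in PFC, 0.0174% in STR and 0.0174% in HAB, so few calls were made at all. The 40 fitted amplitudes, from mean to peak, ran from 0.01 to 0.34 with a median of 0.08, and the lowest adjusted p was 0.301. At an unadjusted p under 0.05 there were 1 of 10 in SN/VTA (9.87% of all genes), 1 in PFC (11.6%), 2 in STR (8.49%) and 0 in HAB (6.3%). A rhythm shared by the 4 tissues was called for 5.55% of all genes and for 0 of the 10 (at an unadjusted p under 0.05 also 0, against 19.1%). The test of different rhythms between tissues called 0 of the 10, against 0.0289% of all genes, with 2 genes (Crh and Nts) at an unadjusted p under 0.05, against 6.64% of all genes. With time as 6 separate levels, 0 of 40 values were called and the lowest adjusted p was 0.434 (limma).

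The 4 values below an unadjusted p of 0.05 are given as measured, and 0 of them passed the adjustment. Crh in PFC had 6.06 and 6.39 at ZT 3, 6.31 and 6.37 at ZT 7, 5.94 and 5.96 at ZT 11, 6.03 and 6.08 at ZT 15, 6.02 and 6.14 at ZT 19, and 6.47 and 6.73 at ZT 23. Both ZT 23 arrays were above all others, and the fitted amplitude was 0.24 ± 0.07 with a peak at ZT 1.1 (adjusted p = 0.301, limma). Nts in STR had 8.25 and 8.58 at ZT 3, 8.06 and 8.21 at ZT 7, 7.86 and 7.98 at ZT 11, 7.34 and 7.99 at ZT 15, 7.91 and 8.01 at ZT 19, and 7.78 and 8.07 at ZT 23, so that the fitted amplitude was 0.28 ± 0.08, peaking at ZT 3.7 (adjusted p = 0.456, limma). The ZT 3 arrays were the highest, and 1 array at ZT 15 was well below the rest. For Tac1 in STR the amplitude was 0.13 ± 0.05, peaking at ZT 14.7 (adjusted p = 0.572, limma), its ZT 15 arrays at 10.14 and 10.15.

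Rln3 in SN/VTA came closest to a difference between dark and light. It measured 9.81 and 9.95 at ZT 3, 9.68 and 9.89 at ZT 7, 9.16 and 9.48 at ZT 11, 8.92 and 9.09 at ZT 15, 9.36 and 9.89 at ZT 19, and 9.18 and 9.25 at ZT 23. In the dark 5 of 6 arrays were below the median of the light arrays, and the ranges overlapped. The mean was 9.28 in the dark and 9.66 in the light, a difference of -0.38 ± 0.10 (SE, n = 6 arrays each) with an unadjusted p of 5.1e-04 and an adjusted p of 0.259 in limma. The adjusted p ran from 0.0309 to 0.391 over other settings, and the lowest came with array weights. It ran from 0.123 to 1 when single arrays were left out. The rhythm fit gave an amplitude of 0.31 ± 0.11 with a peak at ZT 3.9 (adjusted p = 0.486, limma). Dark minus light called 0 of the 10 in any tissue, against 0.0521% of all genes in SN/VTA, 0.376% in PFC, 0.347% in STR and 0.122% in HAB, and Rln3 in SN/VTA was the only one of 40 values below an unadjusted p of 0.05. Of all genes 3.61% were below it in SN/VTA, 9.69% in PFC, 11.4% in STR and 7.62% in HAB.

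Among the listed genes outside the 10, dark minus light in PFC called 1 of 14 processing genes, against 0.376% of all genes: Pcsk1 was higher in the dark than in the light by 0.25 ± 0.06 (adjusted p = 0.0416, limma). The shared rhythm called 2 of 14 processing genes, 1 of 15 interneuron markers, 0 of 24 receptors and 0 of 19 other neuropeptides, against 5.55% of all genes. The calls were Vgf (amplitude 0.13 ± 0.03, peak at ZT 22.5, adjusted p = 0.00521 in limma), Scg2 (0.08 ± 0.02, ZT 1.4, adjusted p = 0.017) and the marker Sncg (0.14 ± 0.04, ZT 3.9, adjusted p = 0.0446). Of the receptors and the other neuropeptides 0 were called in a test of time.

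**Figure D4:**
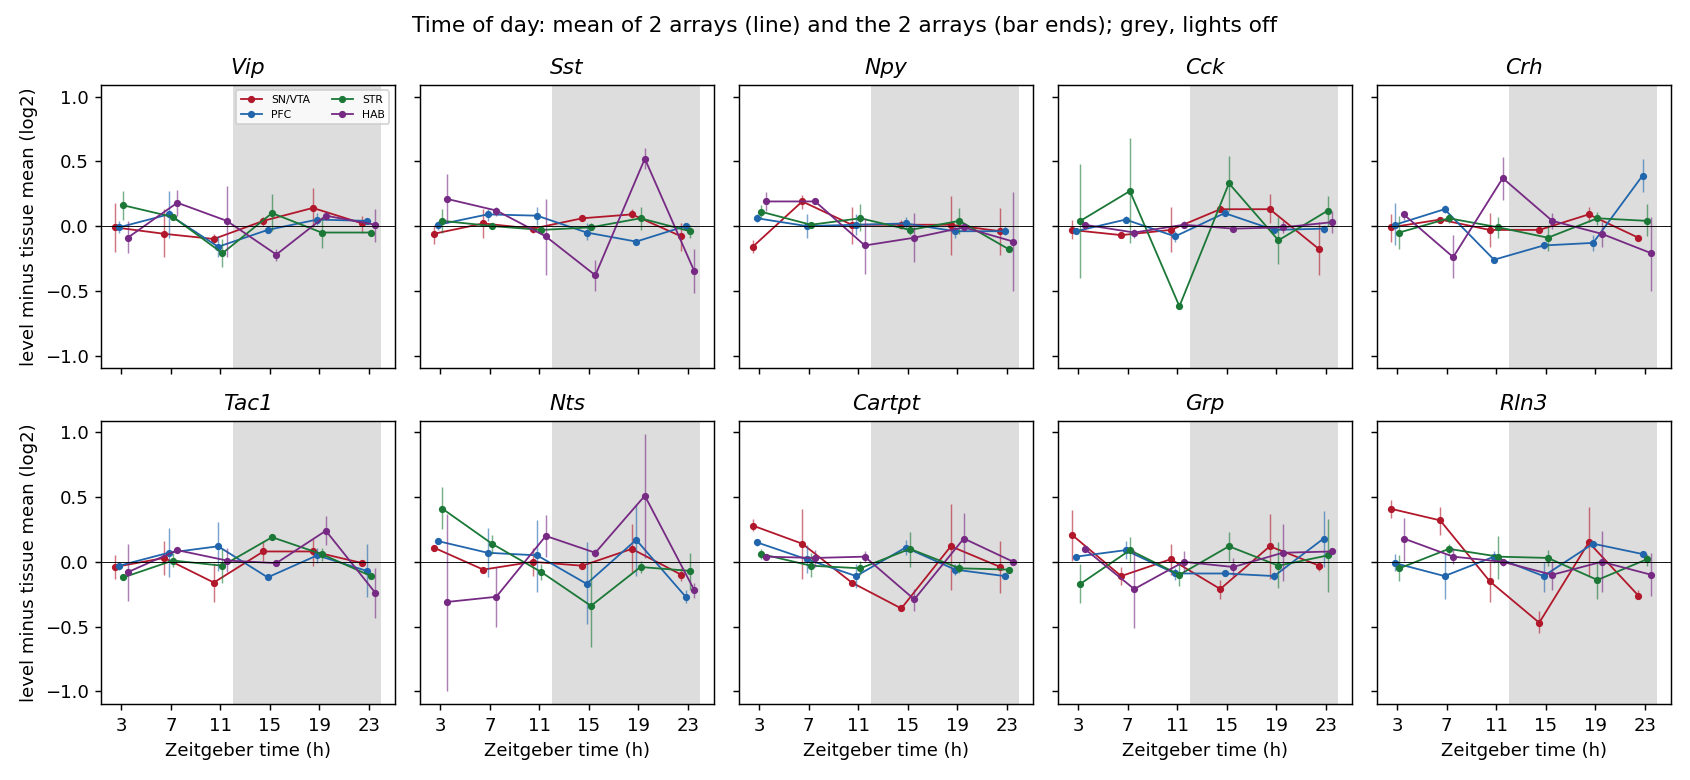
Level minus the tissue mean (log2, vertical axis) by Zeitgeber time (horizontal axis, h; grey, lights off) for each gene and tissue; points are means of 2 arrays and bars run between the 2 arrays. Rln3 in SN/VTA is lowest at ZT 15, Cck in STR at ZT 11 and Sst in HAB is highest at ZT 19, and 0 of 40 rhythms were called.

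Cycle 2 was set against cycle 1 within each tissue, with time as a term. None of the 10 genes was called, against 0% of all genes in SN/VTA, PFC and STR and 0.00579% in HAB, and 6 of the 40 values had an unadjusted p under 0.05. These were 2 of 10 in SN/VTA (10.1% of all genes), 0 in PFC (4.11%), 2 in STR (5.23%) and 2 in HAB (7.92%). Nts in HAB had the largest difference, with a mean of 5.17 in cycle 2 and 4.64 in cycle 1, a difference of 0.53 ± 0.17 that was higher at 5 of 6 times (adjusted p = 0.463, limma). Its HAB mean over both cycles, 4.91, was below the filter level of 5.05. In HAB the 4 choroid plexus markers tested had a median of -1.83 for cycle 2 minus cycle 1, with 0 of 4 called, and their part in the HAB cycle differences of Nts and Crh was not tested. Cck in STR averaged 8.39 in cycle 2 and 8.76 in cycle 1, -0.37 ± 0.14 (adjusted p = 0.934, limma), lower at 4 of 6 times. The others were Vip and Rln3 in SN/VTA, Rln3 in STR and Crh in HAB, with differences between -0.25 and 0.16.

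Arrays of the same tissue did not scatter equally for all genes. The median SD of the genes tested was 0.10 in SN/VTA and 0.14 in the other tissues. In SN/VTA Rln3 (SD 0.36) and Cartpt (0.30) were wider than 99.6% and 99% of genes. In STR the SD of Cck was 0.44, above that of 99.8% of genes, while in HAB it was 0.05, above that of 1.9%. Nts and Sst were the wide ones in HAB, with SDs of 0.49 and 0.38. Cck in STR had its 2 lowest arrays at ZT 11 (7.94 and 7.96), and its ZT 3 arrays were 8.17 and 9.05. Sst in HAB had its 2 highest arrays at ZT 19 (10.32 and 10.48), between 9.38 and 9.62 at ZT 15 and 9.36 and 9.70 at ZT 23. With time as 6 levels their adjusted p was 0.638 and 0.813 (limma, 2 arrays per time), so neither passed the test.

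**Figure D5:**
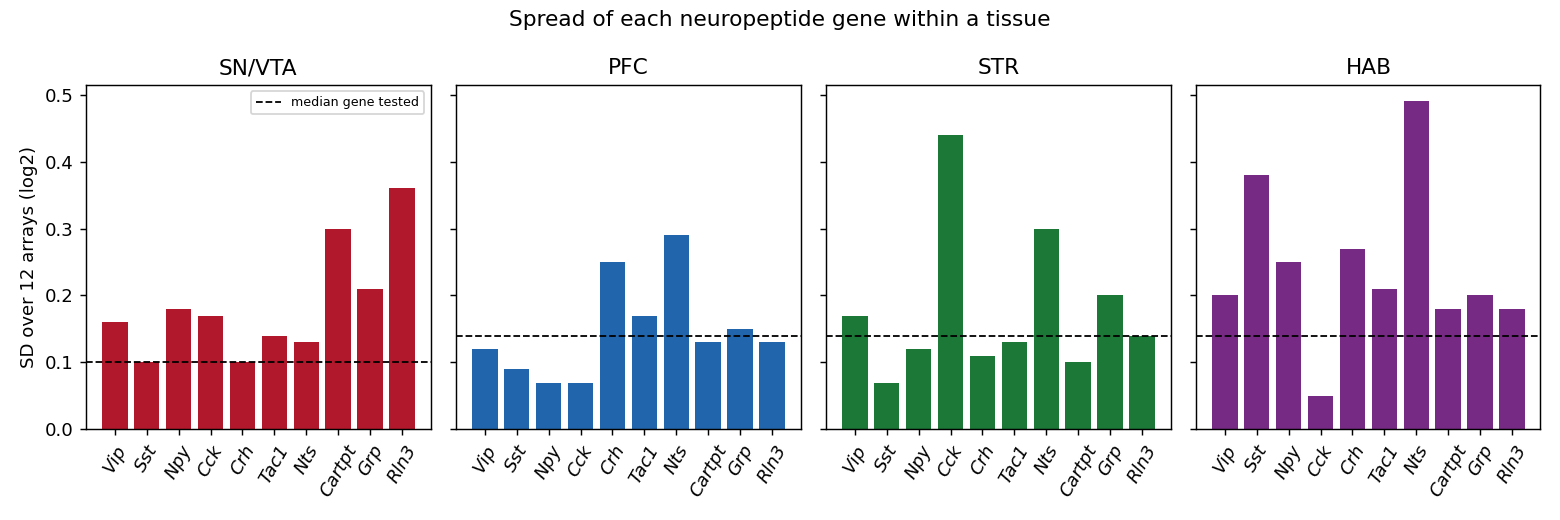
SD of the log2 level over the 12 arrays of a tissue (vertical axis) for each gene; the dashed line is the median SD of all genes tested. Cck is widest in STR at 0.44 and narrowest in HAB at 0.05, and Nts reaches 0.49 in HAB.

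Within a tissue, 180 pairs of the 10 genes were correlated over the 12 arrays, and 0 passed the adjustment over all pairs (permutation test, two-sided; 15 had an unadjusted p under 0.05). By Pearson's r the strongest was Cartpt with Rln3 in SN/VTA, with r of 0.82 (permutation p = 0.0027, adjusted 0.25) and Spearman's rho of 0.82 (p = 0.0019, adjusted 0.17). Without the 2 arrays farthest from the median of Cartpt r was 0.73, and it was 0.56 within cycle 2 and 0.94 within cycle 1. Sst and Tac1 in HAB, the strongest by Spearman's rho, had r of 0.74 (permutation p = 0.0042, adjusted 0.25) and rho of 0.88 (p = 0.00035, adjusted 0.063), with r of 0.51 without the 2 farthest arrays, 0.92 within cycle 2 and 0.76 within cycle 1. Npy and Nts in SN/VTA ran against each other, with r of -0.75 (permutation p = 0.0042, adjusted 0.25) and rho of -0.79 (p = 0.0034, adjusted 0.2), and r of -0.86 without the 2 farthest arrays, -0.64 within cycle 2 and -0.98 within cycle 1.

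The same genes were set against markers of neighbouring tissue, whose amount can differ between dissections. Of 280 relations 0 passed the adjustment, and 26 had an unadjusted p under 0.05. Cck in STR ran with the mean level of the 3 PFC markers, which spanned 5.28 to 6.26 in STR against 8.78 to 9.10 in PFC itself: r was 0.78 (permutation p = 0.0027, adjusted 0.31) and rho 0.83 (p = 0.0015, adjusted 0.39). That r was 0.86 without the 2 farthest arrays, 0.74 within cycle 2 and 0.75 within cycle 1. Sst in HAB ran with 5 hippocampus markers, whose level in HAB spanned 8.77 to 9.56, with r of 0.78 (permutation p = 0.0033, adjusted 0.31) and rho of 0.70 (p = 0.015, adjusted 0.4), and r of 0.62 without the 2 farthest arrays, 0.92 within cycle 2 and 0.70 within cycle 1. It ran against the 5 thalamus markers, with r of -0.70 (permutation p = 0.011, adjusted 0.4) and rho of -0.76 (p = 0.0051, adjusted 0.39), and r of -0.51 without the 2 farthest arrays, -0.83 within cycle 2 and -0.64 within cycle 1. Tac1 in HAB did likewise, with r of 0.67 for the hippocampus markers (permutation p = 0.016, adjusted 0.42; rho 0.69, p = 0.018, adjusted 0.4) and -0.73 for the thalamus markers (p = 0.006, adjusted 0.35; rho -0.66, p = 0.023, adjusted 0.42). Without the 2 farthest arrays these were 0.62 and -0.59, within cycle 2 0.73 and -0.74, and within cycle 1 0.58 and -0.74. The part of hippocampus or thalamus tissue in the relation of Sst with Tac1 was not tested. The 5 thalamus markers did not set HAB apart from SN/VTA. Their mean level had a median of 9.58 in HAB and 9.62 in SN/VTA, and 0 of the 5 were called in SN/VTA minus HAB. Grp in SN/VTA had r of 0.83 with the hippocampus markers (permutation p = 0.0018, adjusted 0.31) and rho of 0.67 (p = 0.021, adjusted 0.41). That r fell to 0.40 without the 2 farthest arrays, so its size depended on those. It was 0.98 within cycle 2 and 0.76 within cycle 1. Cartpt in SN/VTA had its largest r with that tissue's own 3 markers, at 0.74 (permutation p = 0.0093, adjusted 0.39). Its rho there was 0.63 (p = 0.032, adjusted 0.42), and r was 0.75 without the 2 farthest arrays, 0.9 within cycle 2 and 0.62 within cycle 1. For Rln3 the r with those markers was 0.48. Cartpt and Rln3 in SN/VTA had r of 0.63 and 0.62 with the hippocampus markers and 0.67 and 0.58 with the 3 HAB markers. With the thalamus markers r was -0.65 and -0.34. Npy and Nts in SN/VTA had r of -0.63 and 0.59 with the HAB markers. Time of day was not a term in the correlations, and its part and that of the markers in these gene pairs was not tested. In HAB the choroid plexus markers spanned 7.92 to 10.45, and the mean of the hippocampus markers was above its range in every other tissue, although 1 of the 5, Wfs1, was higher in STR (11.26 ± 0.09) than in HAB (9.68 ± 0.52). Their part in the HAB levels of Sst, Npy and Cck was not tested.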

How the data were processed

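The authors deposited log2 levels per probe set of 48 Affymetrix Mouse Gene 2.0 ST arrays, a scale read from the range of values. How background was corrected and arrays were normalized is not given in the sources used here. Per the labels' protocols, RNA was isolated with RNeasy kits, pooled by time point from 3 mice, and labelled with biotin as cDNA (WT Pico kit). All columns were matched to samples by name, and 0 columns were not used.

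Of 41345 rows, 23521 carried 1 symbol and 1814 several in the platform annotation. Only rows with 1 symbol were used, at 1 row per gene, the row with the highest mean, which left 22180 genes. The 17274 with a mean of 5.05 or more (30th percentile over rows) were tested. The 10 genes had 1 row each.

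Fits used R 4.3.3 and limma 3.58.1 (lmFit and eBayes), with the package data.table (version 1.17.8). Tissue pairs and dark minus light came from one model with 24 means, 1 per tissue at each time. Their SEs thus rest on the spread between arrays of one tissue and time, over all 48 arrays. Rhythms used a 24-h cosine and sine, per tissue or over 48 arrays. The Benjamini-Hochberg adjustment ran over all tested genes, with a threshold of 0.05. The fits were tested on simulated data. Correlations used permutation tests with 100000 resamples in Python 3.11.15 with NumPy 2.4.6, SciPy 1.17.1 and pandas 2.3.3, and figures matplotlib 3.10.9.

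The 10 genes, the lists and the tests were chosen with earlier results of these data known. Beside the 10, genes were named by rule: the 3 most alike by r, passing over predicted genes, short RNAs and smell receptors; up to 4 per list by number of pairs called; list genes called in a test of time; and receptors of these peptides. Htr3a, Adarb2, Gad1, Gad2, Slc32a1, Lhx6, Pvalb, Nos1, Ucn, Tph2 and the tissue markers were named as context. The relations with marker lists were added after the data were seen.

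Replicate numbers mark the 24-h cycle. Same-numbered arrays deviated from their group means with an average r of 0.0357 within tissues (60 pairs, 14 of them over 0.1, the highest 0.41) and 0.0357 between tissues at one time (36 pairs, 4 of them over 0.1). Between tissues at different times the average was 0.00543 (180 pairs, 14 of them over 0.1). The main fits did not take the numbers as pairing samples, but a small average r cannot show that samples were unpaired. Alternatives changed the filter, the scaling, the array weights, eBayes, the replicate block, the form of the time term, the samples in the fit and the minimum change, or left out single arrays.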

Additional observations from a re-analysis of the deposited data

How the results depend on the processing

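Over 474 recomputed tissue values of the 10 genes 452 kept their call and 22 gained one, 19 of these on dropping the minimum change, and 0 called values changed sign, and with single arrays left out 1428 of 1440 kept it, 11 gained one and 1 lost it. With no minimum change, 9 genes were called in SN/VTA minus HAB, 6 in PFC minus HAB and 9 in STR minus HAB. With single arrays left out the counts ran from 5 to 7 in SN/VTA minus HAB, 2 to 3 in PFC minus HAB and 5 to 6 in STR minus HAB, and stayed at 7, 7 and 6 in the other pairs. A stricter filter left Crh untested, so that PFC minus HAB had 2 calls. Array weights gave 1 call in dark minus light in SN/VTA, Rln3. All other tests of time stayed at 0 calls for the 10. Trials of other rows per gene were not run, because each gene had 1 row. With the replicate number as a block, SN/VTA minus PFC, STR and HAB called 7, 7 and 5 of the 10, PFC minus STR and HAB 6 and 3, and STR minus HAB 5, so the block changed no call of the 10; over all genes it called 18 rhythms in SN/VTA and 20 in PFC.

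Centring each array on its median moved the median over all genes to 0.17 in SN/VTA minus PFC, 0.25 in SN/VTA minus STR and 0.21 in SN/VTA minus HAB, from 0.05, 0.06 and 0.07, and the share of calls that were higher to 82.1% in SN/VTA minus STR and 64.1% in SN/VTA minus HAB, against 62.5% and 44.2% as deposited. Counts over all genes in the tests of time depended on the settings: rhythm calls were 28 in SN/VTA (3 to 167 over other settings), 31 in PFC (9 to 239), 3 in STR (0 to 140) and 3 in HAB (2 to 49), and dark minus light calls 9 (1 to 46), 65 (4 to 87), 60 (0 to 141) and 21 (0 to 33). With no minimum change the tissue pairs called from 11696 to 13119 genes. Leaving out the second-cycle HAB array of ZT 23 gave 139 dark minus light calls in HAB, and leaving out either HAB array of ZT 15 gave 124 cycle calls there. The difference of rhythms called 5 genes (4 to 8), and the cycle test in HAB 1 (0 to 1). The causes of these shifts were not tested. With no detection calls, signal over background limits the low levels of Nts, Crh and Vip, and of Rln3 outside SN/VTA. The same holds for the receptor gene Rxfp3, and for Rxfp1 in STR and HAB.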
